A study of Mus musculus with 198 samples.

Results

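Zfp genes encode zinc finger proteins of the mouse. They were taken here as the gene entries named Zfp followed by a number, of which there were 343 among 34193 gene entries. A value for methylation at both CA and CG sites in each of 8 libraries was available for 324 of them, and these 324 are described below, beside 20732 other genes with complete values. The other 19 were left out: 16 had no value at all, and Zfp688, Zfp764 and Zfp934 had values for CA sites only. Whole-genome bisulfite sequencing had been run on cortex of 4 heterozygous Dnmt3a knockout mice (hKO) and 4 wild-type (WT) littermates, all C57BL/6J and 8 weeks old, with 2 males and 2 females of each genotype. The labels call the knockout heterozygous without describing the allele. The labelled coverage was 6.4 to 7.8 genome equivalents per animal. The depth behind each gene's value is unknown, so no counting interval is given.

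Most proteins of this family carry arrays of C2H2 fingers, each holding a zinc ion and reading a few bases of DNA. Many, often encoded in clusters of neighbouring genes, also carry a KRAB domain, which recruits the co-repressor TRIM28 and with it histone and DNA methylation to retroviral repeats. Others act in neuronal development or bind RNA. Methylation at CA sites (mCA) is laid down in neurons after birth mainly by DNMT3A, whereas methylation at CG sites (mCG) is present in all cell types and is copied at cell division by DNMT1. Values below are the percentage of cytosines in a gene body called methylated, and a difference is in percentage points, hKO minus WT.

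Zfp gene bodies were poor in mCA and rich in mCG in both genotypes. Median mCA over the 324 genes was 0.572% in hKO cortex (quartiles 0.45% and 0.818%) and 0.922% in WT cortex (quartiles 0.622% and 1.41%). The other genes had medians of 1.16% in hKO and 2.11% in WT. A WT level under 1% was found in 174 Zfp genes, or 53.7%, against 20.1% of other genes, and a WT level over 3% in 22 Zfp genes, or 6.79%, against 27.6%. For mCG the order was the opposite: the Zfp median was 83.9% in hKO and 85.1% in WT, against 77.0% and 79.4% for other genes. WT mCG over 90% was found in 17.3% of Zfp genes and in 2.31% of other genes. Across the 324 genes WT mCA and WT mCG ran against each other (Spearman rho -0.41), which was not so across the other genes (rho 0.05). These are correlations across genes that share the same libraries, and genes are not replicates.

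**Figure D1:**
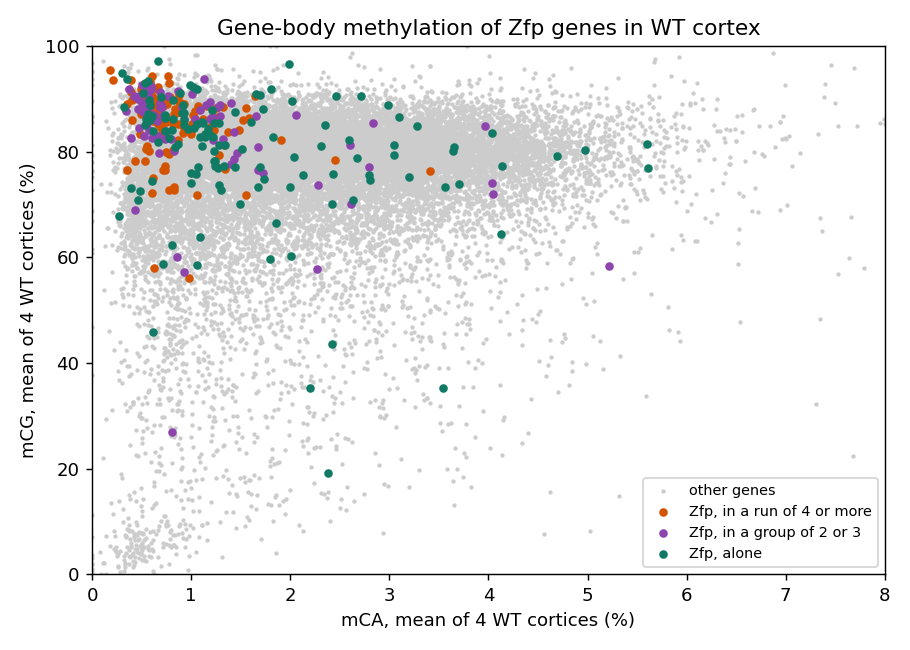
Mean mCA (x axis, %) and mean mCG (y axis, %) of each gene over 4 WT cortices; grey points are other genes, coloured points Zfp genes by whether they lie in a run of neighbouring Zfp genes (3 Zfp genes without a matched neighbourhood and 26 other genes beyond 8% mCA are not drawn). Zfp genes in runs crowd the upper left corner, and those alone spread to the right.

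The extremes can be seen beside their promoters. The 4 shown belong to the Zfp genes with the highest WT mCA (Zfp423), the lowest WT mCG (Zfp503) and the lowest WT mCA (Zfp709 and Zfp811). Each is the 250 bases before the first listed start, from RefSeq on GRCm38.p6, written 5' to 3' on the gene's strand with CG dinucleotides in capitals: chr8:87959596-87959845, minus strand, for Zfp423; chr14:21989602-21989851, minus strand, for Zfp503; chr8:71881818-71882067, plus strand, for Zfp709; and chr17:32809932-32810181, minus strand, for Zfp811.
Zfp423: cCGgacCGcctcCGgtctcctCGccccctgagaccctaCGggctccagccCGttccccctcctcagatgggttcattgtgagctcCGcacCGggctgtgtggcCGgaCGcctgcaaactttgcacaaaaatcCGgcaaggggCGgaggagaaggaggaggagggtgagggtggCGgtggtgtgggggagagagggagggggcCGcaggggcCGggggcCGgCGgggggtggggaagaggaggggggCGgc
Zfp503: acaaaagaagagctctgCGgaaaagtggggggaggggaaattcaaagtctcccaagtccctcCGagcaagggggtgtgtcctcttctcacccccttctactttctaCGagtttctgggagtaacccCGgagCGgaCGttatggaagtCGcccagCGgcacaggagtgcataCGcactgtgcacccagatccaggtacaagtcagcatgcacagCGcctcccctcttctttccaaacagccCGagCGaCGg
Zfp709: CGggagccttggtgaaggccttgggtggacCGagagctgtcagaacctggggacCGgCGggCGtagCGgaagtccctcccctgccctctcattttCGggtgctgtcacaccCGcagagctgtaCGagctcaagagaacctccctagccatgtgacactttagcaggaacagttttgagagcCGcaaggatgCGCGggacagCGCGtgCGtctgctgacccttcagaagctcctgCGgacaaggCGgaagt
Zfp811: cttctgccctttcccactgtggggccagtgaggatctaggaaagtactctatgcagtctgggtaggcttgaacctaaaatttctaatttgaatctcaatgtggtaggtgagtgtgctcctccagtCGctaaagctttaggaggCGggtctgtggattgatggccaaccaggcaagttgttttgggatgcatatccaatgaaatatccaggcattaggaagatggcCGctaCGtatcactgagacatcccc
These windows held 18, 13, 17 and 4 CG, in the order shown. The pair with the lowest gene-body mCA thus had very different windows. Of the 260 Zfp genes with a promoter entry, 56.9% held at least 10 CG (median 11), beside 56.7% of other genes with complete values (median 12) and 38.2% of all 27025 promoters of the table. The deposited values cover gene bodies, and methylation of these windows was not measured separately.

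The main question was how far the loss of 1 copy of Dnmt3a lowers methylation of these genes. In mCA, 141 of 324 Zfp genes (43.5%) were lower in hKO cortex at an adjusted p under 0.05 (limma, adjusted over all 21302 genes tested), and 0 were higher, also at an unadjusted p under 0.05. Over all genes tested 72.1% were lower and 0.0329% higher, so the share of Zfp genes called was below the background. The hKO mean was lower in 306 of the 324. The highest hKO value was below the lowest WT value in 113 Zfp genes (34.9%), against 64.6% of all genes tested; the reverse separation was found in 0.00939% of all genes tested and in 0 Zfp genes. The median difference was -0.352 points, against -0.922 points for other genes. In bulk tissue, fewer methylated cells and less methylation per cell cannot be told apart.

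In each animal the Zfp median stood well below that of other genes. It was 0.537%, 0.457%, 0.777% and 0.572% in hKO animals 046-2, 047-1, 651-2 and 694, and 0.809%, 0.788%, 1.24% and 0.866% in WT animals 046-1, 047-2, 651-3 and 695. The groups did not overlap, but hKO 651-2 came close to the lowest WT animal. These females, hKO 651-2 and WT 651-3, were the highest of their genotype at most Zfp genes: hKO 651-2 at 245 of 324, and WT 651-3 at 269 of 324. As a share of the median of other genes in the same animal, the Zfp median was 44.3% to 58.1% in hKO and 40.4% to 50.4% in WT, and these ranges overlapped. By title number the hKO share was the higher one each time: 48.4% in hKO and 41.5% in WT for 046, 44.3% and 40.4% for 047, 58.1% and 50.4% for 651, and 50.8% in hKO 694 and 44.3% in WT 695. The measure was not tested. The numbers did not meet the rule for pairing animals, so the main fits ignore them. With a block by title number, 185 of 324 Zfp genes (57.1%) were lower in mCA and 1 was higher (limma, adjusted p under 0.05). Over all genes tested this block gave 78.1% lower and 0.0563% higher.

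**Figure D2:**
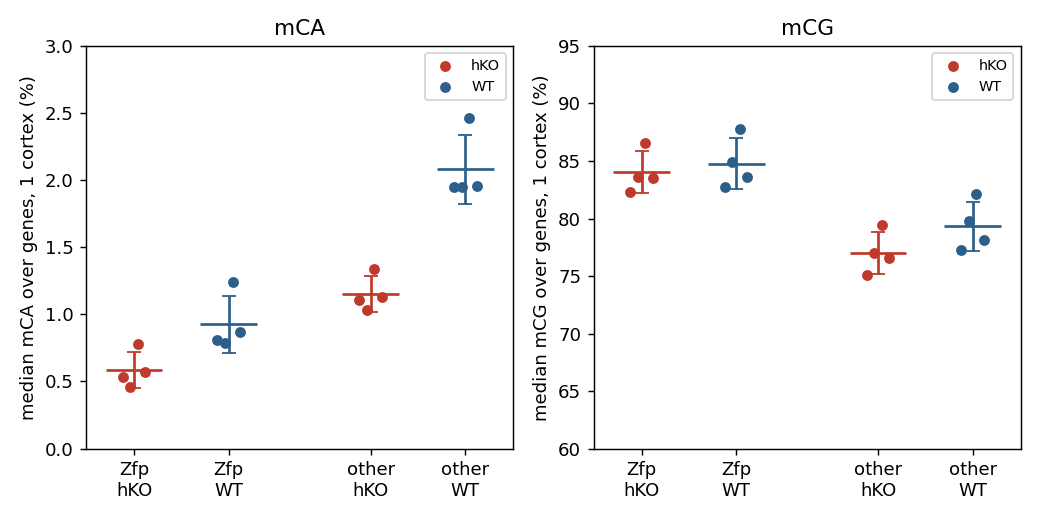
Median gene-body mCA (left) and mCG (right, axis from 60%) over Zfp genes and over other genes; each point is 1 cortex, and lines and bars are the mean and SD of 4. In mCA, Zfp medians lie below 1.3% in every animal, with all hKO points below all WT points; in mCG they lie above the other genes of the same animal and the genotypes overlap.

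The number of calls differed between the fits of each sex alone, with 2 animals per genotype, and with what the fall is measured against. In males alone 129 Zfp genes were lower in hKO (all genes tested: 63.4%), and in females alone 33 were (all genes tested: 36.8%), by limma in each sex. A test of the difference between sexes called 0 Zfp genes in mCA (limma interaction, 6 at an unadjusted p under 0.05), so the sexes were not shown to differ. The labels of the females list a further sequencing instrument that those of the males do not, so a difference in instrument cannot be told apart from sex. The median gene differed by -0.911 points between genotypes. After each library's median was subtracted, 22 Zfp genes were lower than that shift and 224 were higher (limma, adjusted p under 0.05), beside 24.8% lower and 30.6% higher over all genes tested: most Zfp genes lost fewer points than the median gene. A gene cannot lose more points than its WT level, and 53.7% of Zfp genes had WT mCA under 1%. The calls as higher were thus in part fixed by low levels.

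As a share of the WT level, the median Zfp gene kept slightly more mCA than the median other gene. The gap was smaller among genes with WT mCA of at least 1%. The median Zfp gene kept 62.0% of its WT mCA in hKO cortex (quartiles 55.7% and 71.8%), against 56.5% for other genes. Among genes with WT mCA of at least 1%, the kept share was 56.8% over 150 Zfp genes and 55.6% over other genes. That floor was set on the WT mean, which is also the denominator of the share. It favours genes with high WT values, which can lower their share. Groups by the mean over all cortices are given further below. In shallow libraries of 8-week cortex, CC methylation, commonly read as background from unconverted cytosine, averaged 0.267% in 7 hKO animals and 0.362% in 11 WT animals. With those values subtracted from mCA, the median kept share was 55.4% over 315 Zfp genes and 52.7% over other genes, and with both restrictions it was 52.6% and 52.3%. A smaller amount was thus taken from hKO than from WT. Whether CC methylation is background alone in both genotypes was not tested, so these shares are not a settled correction. For the Zfp share of 62.0%, taken without restriction or subtraction, WT animal 651-3 and hKO animal 651-2 set the range. That share was 69.8% without WT 651-3, 56% without hKO 651-2, and 62.8% without both.

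Read by level, Zfp genes and other genes followed a similar curve. Genes were grouped by their mean over all 8 cortices. Under 0.5% mCA the kept share was 75.7% over 61 Zfp genes and 78.7% over other genes, and 0 Zfp genes were called lower, against 1.26% of other genes. Between 0.5% and 1%, where 164 Zfp genes lay, it was 65.4% and 61.5%, with 33.5% of Zfp genes and 38.3% of other genes called. Between 1% and 1.5% it was 59.3% over 48 Zfp genes and 56.6% over other genes, with 85.4% and 82.8% called. Between 1.5% and 2% it was 55.3% over 19 Zfp genes and 55.2% over other genes, with 78.9% and 91.2% called. From 2% to 3% it was 56.7% over 21 Zfp genes and 55% over other genes, with 90.5% and 94.3% called, and from 3% upwards 57.3% over 11 Zfp genes and 55.9% over other genes, with 100% and 90.3% called. The groups of 19 and 11 Zfp genes are small. The mCG level did differ within these groups: under 0.5% mCA the median mCG was 88.5% in hKO and 88.5% in WT over Zfp genes, against 72.1% in hKO and 72.3% in WT over other genes.

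**Figure D3:**
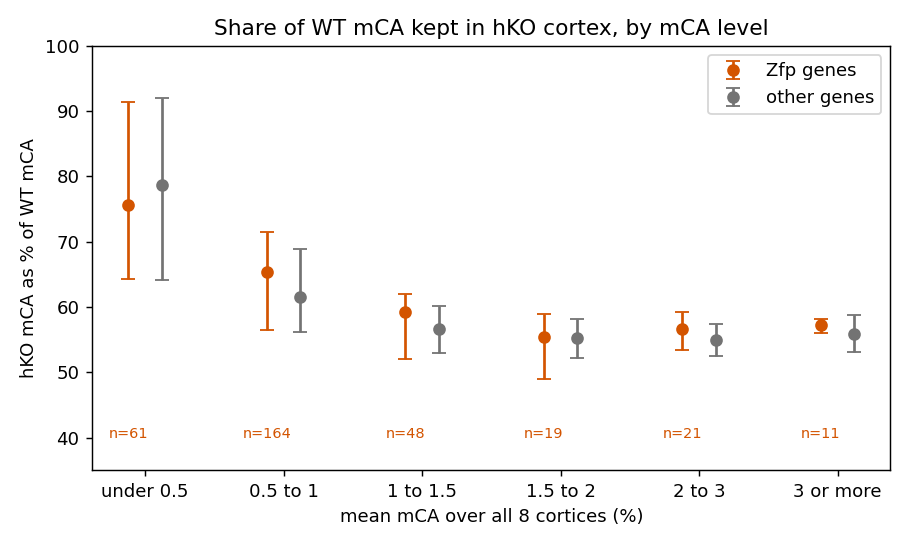
Share of WT mCA that hKO cortex kept (y axis, %, from 35%), for Zfp genes and other genes grouped by mean mCA over all 8 cortices (x axis, %); points are medians over genes, bars the quartiles, n the number of Zfp genes. The kept share is highest under 0.5% in both classes (75.7% and 78.7%) and lies between 55% and 57.3% from 1.5% upwards.

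When mCA was divided by the mean over all genes of the same library, 0 Zfp genes were called in either direction by limma, as were 0 of all 21302 genes (0% lower, 0% higher). At an unadjusted p under 0.05, 3 Zfp genes (0.926%) were lower and 19 (5.86%) higher in this relative measure, against 712 (3.43%) lower and 602 (2.90%) higher among the other genes. No single Zfp gene passed the adjusted threshold in this measure.

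In mCG no Zfp gene passed. By limma 0 of 324 were lower and 0 higher at an adjusted p under 0.05, and over all 21060 genes tested 0% were lower and 0% higher; at an unadjusted p under 0.05, 19 Zfp genes (5.86%) were lower and 1 (0.309%) higher, against 10.1% lower and 0.332% higher over all genes tested in both contexts. The hKO mean was lower in 234 Zfp genes, or 72.2%, against 84.2% of other genes. Complete separation with hKO below WT was seen in 14 Zfp genes, or 4.32%, close to the 4.94% of all genes tested; the reverse was seen in 0.057% of all genes tested. The Zfp median was 82.3%, 83.7%, 86.6% and 83.5% in hKO animals 046-2, 047-1, 651-2 and 694, and 82.8%, 84.9%, 87.8% and 83.6% in WT animals 046-1, 047-2, 651-3 and 695, and the genotypes overlapped. Within each of these numbers, 694 being set beside 695, the hKO value was the lower one, which was not tested.

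The median mCG difference over Zfp genes was -1.07 points, against -2.19 points over other genes. It rested on single animals: it was -0.179 points without WT 651-3, -0.445 without hKO 046-2, -2.07 without hKO 651-2, -1.81 without WT 046-1, -1.61 without WT 695, and -1.05 without both 651-2 and 651-3. As a share of the other genes' median in the same animal, Zfp mCG was 108.6% to 109.7% in hKO and 106.5% to 107.1% in WT. These ranges did not overlap, and each animal here serves as its own scale; the measure was not tested.

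Zfp genes in runs of neighbours had lower median mCA than those alone, with broad overlap: a WT level under 1% was found in 74.6% of the genes in runs and in 33.9% of those alone. Along the order of protein-coding genes in RefSeq, 114 lay in 15 runs of at least 4 Zfp genes with at most 3 other genes between neighbours, 80 in groups of 2 or 3, and the rest alone, except 3 that could not be placed. Median mCA was 0.510% in hKO and 0.737% in WT over genes in runs, 0.537% in hKO and 0.842% in WT over groups of 2 or 3, and 0.764% in hKO and 1.23% in WT over genes alone. In that order 36 of 114 (31.6%), 29 of 80 (36.3%) and 75 (59.1%) of those alone were called lower in hKO, against 72.1% of all genes tested. Median mCG was 85.8% in hKO and 86.3% in WT in runs, and 81.3% in hKO and 81.9% in WT alone. At least 10 CG stood in the promoter window of 44.2% of the genes in runs and 67.3% of those alone.

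The runs differed among themselves. The 17 genes from Zfp712 to Zfp273 had a median mCA of 0.450% in hKO and 0.617% in WT, with WT levels between 0.397% and 1.02%, and 3 were called lower. The 17 from Zfp677 to Zfp40 had 0.534% in hKO and 0.744% in WT, and 7 were called. None of the 10 genes from Zfp180 to Zfp94 was called by limma (medians 0.475% in hKO and 0.658% in WT). In the pair of runs with the highest WT medians, 5 of the 6 genes from Zfp787 to Zfp28 (0.776% in hKO, 1.30% in WT) and 6 of the 8 from Zfp786 to Zfp467 (0.592% in hKO, 0.970% in WT) were called. Over all genes tested 72.1% were called lower, so this pair of runs was close to the background, and each run holds few genes. The kept share was 66.3% over all genes in runs and 58.7% over those alone. Among genes with WT mCA of at least 1% it was 56.3% over 29 genes in runs and 56.8% over 84 genes alone. With CC methylation subtracted it was 59.8% in runs and 53.9% alone, and with both restrictions 48.5% in runs and 53.1% alone. The floor of 1% again acts on WT values alone, and most genes in runs fall below it. How far this selection shaped the shares taken with the floor was not tested.

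**Figure D4:**
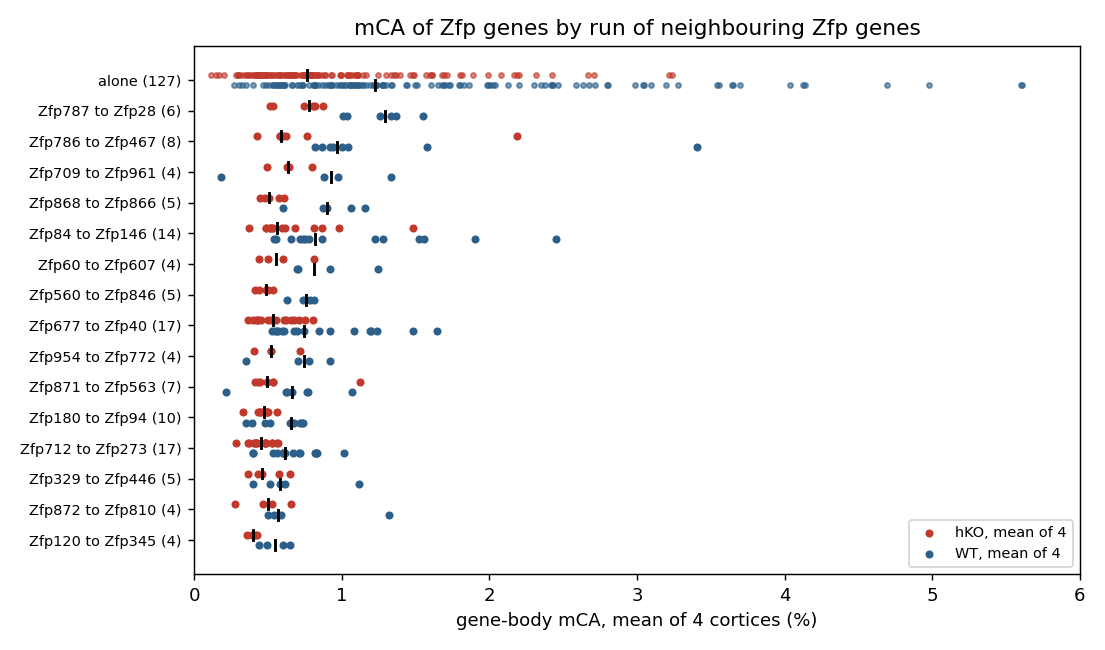
Gene-body mCA (x axis, %) of each Zfp gene, as the mean of 4 cortices, for the 15 runs of neighbouring Zfp genes (number of genes in brackets, ordered by WT median) and for Zfp genes alone; black ticks are medians. Most genes in runs lie under 1% in both genotypes, while those alone reach 5.61% in WT.

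The 5 genes with the highest WT mCA, Zfp423, Zfp521, Zfp217, Zfp957 and Zfp395, lay outside the runs. Among genes in runs the highest WT level was 3.41%. Zfp423, a factor of cerebellar and fat cell development, had 2.98%, 3.31%, 3.50% and 3.06% in hKO cortex and 5.28%, 5.50%, 6.36% and 5.30% in WT cortex, without overlap. Its difference of -2.40 points (SE 0.35, limma adjusted p = 0.000692) left 57.3% of the WT level, close to the share of all genes. Zfp521, its close relative, which promotes neural differentiation of embryonic stem cells, had 3.15%, 3.11%, 3.63% and 3.05% in hKO and 5.25%, 5.54%, 6.26% and 5.36% in WT (difference -2.37, SE 0.34, limma adjusted p = 0.000692). Neither gene showed overlap between genotypes. Zfp957 differed by -2.31 points (means 2.67% ± 0.19 in hKO and 4.98% ± 0.61 in WT; SD, n = 4 each), Zfp395 by -1.98 (2.71% ± 0.28 and 4.69% ± 0.44) and Zfp618 by -1.85 (2.19% ± 0.19 and 4.04% ± 0.52), each past the limma threshold. Zfp217, whose human counterpart is a breast cancer oncogene, had 2.91%, 3.54%, 3.35% and 3.68% in hKO and 4.58%, 5.23%, 5.90% and 5.14% in WT, and kept 64.7%. The mCG of Zfp423 was 71.2% ± 2.0 in hKO and 76.9% ± 2.0 in WT without overlap (SD, n = 4 each), but did not pass after adjustment (limma adjusted p = 0.476).

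At the other end stood genes whose values were at the limit of the method. Zfp709, in a run, had 0%, 0%, 0.716% and 1.27% mCA in hKO and 0.300%, 0%, 0.190% and 0.243% in WT, beside mCG above 90% in every animal. Zfp811 had 0.568%, 0%, 1.29% and 0.290% in hKO and 0.575%, 0%, 0.275% and 0% in WT. Neither passed (limma adjusted p = 0.299 and 0.276), and groups overlapped in both. Zfp513, Zfp951 and Zfp358 completed the 5 lowest, with WT means of 0.273%, 0.305% and 0.325%, against hKO means of 0.117%, 0.201% and 0.380%, in the same order. Of all 2592 mCA values of Zfp genes, 55 were exactly 0, in 26 genes, and WT levels under 0.362% lie below the mean CC methylation of WT cortex.

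Genes with roles in neuronal development were fully measured, and 8 of 11 (72.7%) were lower in hKO in mCA (limma), close to the 72.1% of all genes tested, with medians of 1.04% in hKO and 2.20% in WT. Besides Zfp423 and Zfp521 they included Zfp536, a repressor of neuronal differentiation, with 2.25%, 2.12%, 2.57% and 2.11% in hKO and 3.76%, 4.07%, 4.61% and 3.73% in WT (difference -1.78, SE 0.26, limma adjusted p = 0.000692). Zfp462, whose human counterpart is mutated in a neurodevelopmental syndrome, had 1.68%, 1.64%, 2.16% and 1.77% in hKO and 2.91%, 3.26%, 3.68% and 2.93% in WT. Both showed no overlap and kept 56% and 56.8% of the WT level. Zfp292 (0.732% ± 0.13 in hKO, 1.22% ± 0.23 in WT), Zfp148 (0.737% ± 0.17 in hKO, 1.24% ± 0.23 in WT), Zfp711 (0.666% ± 0.14 in hKO, 1.24% ± 0.33 in WT) and Zfp365 (0.744% ± 0.12 in hKO, 1.09% ± 0.14 in WT) were lower at smaller levels (SD, n = 4 each). The Zfp365 call was lost without any 1 of hKO 046-2, 047-1 or 694 or WT 046-1 (limma adjusted p 0.0570 to 0.0824).

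Of the 3 not called, Zfp503 and Zfp238 were among the 3 genes with the lowest WT mCG of all 324. Zfp335 had the lowest WT mCA of these 11 genes, but not of all Zfp genes. Zfp503, a regulator of striatal development, had 5.46%, 11.4%, 6.87% and 11.4% mCG in hKO and 10.1%, 28.2%, 25.3% and 13% in WT, the lowest WT mean of all 324 genes. Its mCA was 0.815%, 0.713%, 0.871% and 1.75% in hKO and 0.953%, 3.13%, 4.63% and 0.789% in WT. WT 047-2 and 651-3, both female, were high in both contexts, and neither difference passed (limma adjusted p = 0.141 in mCA and 0.476 in mCG; 0.0458 in mCA without WT 695). In mCA the difference passed in females alone (-3.09 points, limma adjusted p = 0.0199) and had the opposite sign in males alone (0.413). Zfp238, a repressor needed in cortical neuron development, had mCG of 34.6% ± 3.5 in hKO and 35.2% ± 9.1 in WT, and mCA of 1.57% ± 0.46 in hKO and 2.20% ± 0.72 in WT, which overlapped (limma adjusted p = 0.143; 0.0415 without WT 046-1). Zfp335, needed for neural progenitor division, had 0.451% ± 0.098 in hKO and 0.665% ± 0.21 in WT (limma adjusted p = 0.155; SD, n = 4 each). Zfp771, the third of the least CG-methylated, had mCG of 27.5% ± 3.9 in hKO and 26.9% ± 3.7 in WT.

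Genes known for imprinting, retroviral silencing or pluripotency were called lower in 5 of 9 cases (55.6%, against 72.1% of all genes tested), with medians of 0.654% in hKO and 1.32% in WT. Zfp57, which protects methylation of imprinting control regions in the embryo, had 1.34%, 1.69%, 1.10% and 1.07% in hKO and 2.07%, 2.22%, 2.78% and 2.33% in WT (difference -1.05, SE 0.21, limma adjusted p = 0.00201). Zfp445, which acts with it at imprints, had 0.457%, 0.252%, 0.237% and 0.611% in hKO and 0.462%, 0.470%, 0.993% and 0.448% in WT, with overlap and without a call (limma adjusted p = 0.251). Zfp809, a silencer of murine leukaemia virus, had 0.624%, 0.558%, 0.877% and 0.556% in hKO and 1.17%, 1.19%, 1.56% and 1.35% in WT, a difference of -0.663 points (SE 0.14, limma adjusted p = 0.00245). Zfp809 lay in a run and kept 49.7%, and its mCG was 89.9% ± 1.8 in hKO and 88.4% ± 2.8 in WT.

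Zfp568, a repressor of a placental Igf2 transcript, was also in a run, with 1.40%, 1.45%, 1.62% and 1.47% in hKO and 2.17%, 2.51%, 2.91% and 2.21% in WT (limma adjusted p = 0.0020). Zfp42, the pluripotency marker also called Rex1, had 1.71% ± 0.28 in hKO and 3.28% ± 0.59 in WT, and Zfp819, which acts on retroviral repeats, 1.00% ± 0.33 in hKO and 2.06% ± 0.48 in WT; both were lower. Zfp932 and Zfp708, which bind retroviral elements, and Zfp281, a pluripotency factor, had hKO means of 0.472%, 0.527% and 0.572% against WT means of 0.583%, 0.823% and 0.616% in that order. None of these passed (limma adjusted p = 0.525, 0.103 and 0.860).

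**Figure D5:**
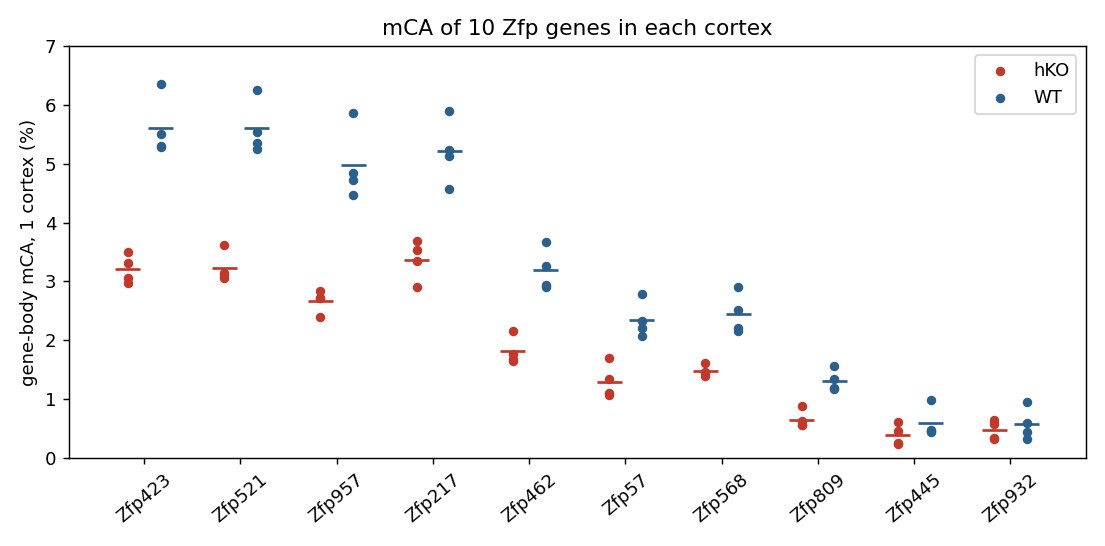
Gene-body mCA (y axis, %) of 10 Zfp genes in each cortex; points are animals, lines the mean of 4, with hKO left of WT. From Zfp423 to Zfp809 no hKO point reaches a WT point of the same gene; Zfp445 and Zfp932 overlap.

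Zfp genes whose products bind RNA or lack the usual finger array were called lower in 4 of 7 measured cases (57.1%, against 72.1% of all genes tested), with medians of 0.724% in hKO and 1.23% in WT; Zfp36 had no value. Zfp326, part of a complex linking splicing to transcription, had 0.891%, 0.695%, 1.2% and 0.953% in hKO and 1.5%, 1.63%, 2.14% and 1.43% in WT. Zfp346, which binds double-stranded RNA, had 0.836%, 0.531%, 0.988% and 0.843% in hKO and 1.48%, 1.11%, 1.81% and 1.35% in WT. Both were lower without overlap (limma adjusted p = 0.00685 and 0.00958). Zfp106, an RNA-binding protein needed by motor neurons, had 0.724% ± 0.11 in hKO and 1.23% ± 0.30 in WT, and its call was lost without hKO 047-1 (limma adjusted p = 0.0585). Zfp185, a cytoskeletal LIM protein, had 1.24% ± 0.27 in hKO and 2.43% ± 0.66 in WT (SD, n = 4 each). Zfp207, which serves spindle assembly, Zfp259 and Zfp622 were not called, with hKO means of 0.477%, 0.367% and 0.627% against WT means of 0.606%, 0.531% and 0.997% in that order; Zfp622 passed without WT 047-2 (limma adjusted p = 0.0302).

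Among genes with WT mCA of at least 1%, the lowest kept shares were those of Zfp692 (32.1%), Zfp14 (36.0%) and Zfp352 (41.1%). Zfp14 had 0.757%, 0.275%, 0.782% and 0.923% in hKO and 1.46%, 2.12%, 2.29% and 1.74% in WT, without overlap (limma adjusted p = 0.00113). Zfp352, a gene without introns active in the early embryo, had 1.08%, 1.44%, 0.890% and 0.986% in hKO and 1.83%, 3.14%, 3.06% and 2.65% in WT (limma adjusted p = 0.00124). Zfp692 had 0.377%, 0.763%, 0.402% and 0.337% in hKO and 1.71%, 0.791%, 1.72% and 1.64% in WT, so that hKO 047-1 and WT 047-2 nearly met. The highest kept shares were 81.2% in Zfp747, 80.6% in Zfp740 and 76.2% in Zfp90, none of which passed (limma adjusted p = 0.634, 0.305 and 0.137). Zfp747 ranged over 0% to 2.74% in hKO and 0.660% to 2.96% in WT.

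Other gene families put these values in scale. The 29 Zbtb genes with complete values, which encode zinc finger proteins with a BTB domain, had median mCA of 0.982% in hKO and 1.66% in WT, and 23 (79.3%) were called lower, against 72.1% of all genes tested. The 120 olfactory receptor genes with complete values, also clustered, had 0.808% in hKO and 1.15% in WT; 39 (32.5%) were called lower and the kept share was 64.1%, near that of Zfp genes, but their median mCG was 78.2% in hKO and 79.5% in WT. As a check of the tissue, excitatory neuron markers had low mCG (list median 46% in hKO and 41.3% in WT) beside microglial markers (77.9% in hKO and 80.5% in WT) and endothelial markers (75.1% in hKO and 77.3% in WT). Median mCA of the marker lists lay between 1.02% and 2.51% in hKO and between 1.94% and 4.33% in WT; the part of cell composition in the results was not tested.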

How the data were processed

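Bisulfite libraries from the cortex of 8 animals, 4 per genotype, were grouped by the genotype label. The authors deposited 1 fraction of methylated cytosines per gene, context and animal, made with BS-Seeker2 and bedtools on mm9 per the submitters' processing notes; versions are not given in the sources used here. Gene windows, coverage filters and counts are likewise not given, so values were not weighted by depth, and short or poorly covered genes carry more error. Fractions were multiplied by 100 to give percent. A second deposited table of fractions, from shallow libraries, gave CC methylation only, and 8 columns of group means made by the authors were not used.

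Differences were tested with limma 3.58.1 (eBayes with trend, R 4.3.3) over all genes with a value in all 8 libraries, with Benjamini-Hochberg adjustment and a threshold of 0.05; summaries used Python 3.11.15. Separate animals are the replicates. On simulated data over 21302 genes the mCA test recovered 41 of 100 halved and 82 of 100 doubled genes with 3 other calls, and over 21060 genes the mCG test recovered 84 of 100 genes set to 0.8 times and 88 of 100 set to 1.2 times their level, with 16 other calls. These mCG changes were far larger than the median differences seen (-1.07 points over Zfp genes, -2.19 over other genes), so recovery at those sizes was not measured. Few genes were changed in the simulation, whereas 72.1% were called lower in mCA here, so its mCA rates do not carry over to these data. The genes, lists and tests were chosen with earlier results of these data known. Named genes were the 5 highest and 5 lowest in WT mCA, the 5 largest falls without overlap, the 3 lowest and 3 highest kept shares with WT mCA of at least 1%, the 3 lowest in WT mCG, and lists by role; genes named by other rules are stated as such.

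Symbols were matched to RefSeq of GRCm38.p6 for neighbourhood and promoters only (310 by symbol, 11 by synonym), since no mm9 annotation was used. KRAB domains and finger numbers were not analysed here. Alternatives were each sex alone, sex as covariate, a logit scale, a filter on low values, library medians subtracted, a block by title number, each animal left out, medians over animals (for median differences and kept shares alone), and, chosen after seeing the data, both 651 animals left out.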

Additional observations from a re-analysis of the deposited data

Results flagged for a closer look

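In 96 checks of 4 animals each, over the named Zfp genes, 10 found 1 animal far from the other three; chance gives about 1 in 20. WT 651-3 was far above the other WT animals in mCA at Zfp292 (1.56%, others 1.08% to 1.14%), Zfp445 (0.993%, others 0.448% to 0.470%), Zfp740 (1.76%, others 1.00% to 1.13%), Zfp771 (1.27%, others 0.600% to 0.694%) and Zfp513 (1.09%, others 0%). At Zfp513 hKO 046-2 was also alone above 0, with 0.467%. hKO 651-2 was above the other hKO animals at Zfp521 (3.63%, others 3.05% to 3.15%), and hKO 694 at Zfp503 (1.75%, others 0.713% to 0.871%). At Zfp692 hKO 047-1 was high (0.763%, others 0.337% to 0.402%) and WT 047-2 low (0.791%, others 1.64% to 1.72%), so both outlying animals narrowed the difference between genotypes. The part of depth in these values was not tested. In tests of the difference between sexes 0 Zfp genes were called in mCA, mCG or relative mCA (limma; 6, 6 and 15 at an unadjusted p under 0.05).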

How the results depend on the processing

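The count of Zfp genes lower in mCA, 141, was 102 to 158 with 1 animal left out and 148 without both 651 animals. It was 138 on the logit scale and 140 with the filter or with sex as covariate. It was 129 in males alone, 33 in females alone and 22 with library medians subtracted. All 22 were among the 141, which that scale makes nearly certain, since each of them fell by more than the median gene. The count higher, 0, was 224 with library medians subtracted, by construction of that scale, since the median gene fell by 0.911 points. It was 0 to 1 with 1 animal left out (Zfp637 without WT 651-3), 2 without both 651 animals (Zfp637 and Zfp954, named after their values were seen), and 0 under the other alternatives except the block. Title numbers did not meet the rule for pairing. Deviations of same-numbered animals correlated at 0.037 to 0.114 in mCA and 0.039 to 0.120 in mCG, not over 0.1 in every pair. Each animal was set against the 4 of the other genotype. The one with its own number correlated best for 5 of 8 animals in mCA and 6 of 8 in mCG. With the replicate block 185 were lower and 1, Zfp637, was higher. Counts in mCG and relative mCA were 0 in the fits for each sex, with the covariate, block, logit, filter and other scaling, and without 1 animal or both 651 animals; medians over animals give no such count. The median mCA difference was -0.252 to -0.421 points and the kept share 56% to 69.8% with 1 animal left out.

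Of the named genes called in all animals, 11 were not called in females alone and 1 (Zfp819, limma adjusted p = 0.145) was not called in males alone. Of those not called, Zfp238 passed in females alone (-1.44 points, limma adjusted p = 0.0399), as did Zfp503, Zfp622 passed in males alone (limma adjusted p = 0.0293), Zfp335 and Zfp708 passed with the replicate block (0.0486 and 0.0189), and Zfp708 also without both 651 animals (0.0286). With library medians subtracted Zfp358, Zfp709 and Zfp811 passed as higher (limma adjusted p 0.000763 to 0.00778). With library medians subtracted, mCA differences turned positive at Zfp106 (0.404), Zfp148 (0.412), Zfp207 (0.781), Zfp238 (0.279), Zfp259 (0.747), Zfp281 (0.868), Zfp292 (0.424), Zfp326 (0.171), Zfp335 (0.698), Zfp346 (0.273), Zfp365 (0.563), Zfp445 (0.707), Zfp513 (0.755), Zfp622 (0.541), Zfp708 (0.616), Zfp711 (0.339), Zfp740 (0.672), Zfp747 (0.537), Zfp771 (0.639), Zfp809 (0.248), Zfp90 (0.668), Zfp932 (0.80) and Zfp951 (0.806), and the mCG difference of Zfp238 to 1.75, since these genes lost fewer points than the median gene. In males alone the mCA difference was 0.173 at Zfp238, 0.0788 at Zfp445, 0.413 at Zfp503, 0.234 at Zfp513, 0.178 at Zfp747 and 0.0540 at Zfp951, and the mCG difference 1.67 at Zfp238 and -0.164 at Zfp771, each of opposite sign to that of all animals. Zfp281 was 0.0450 in females alone and 0.0196 on the logit scale. Without both 651 animals Zfp513 was 0.156 and Zfp951 0.0360 in mCA, and Zfp238 1.57 in mCG. With 1 animal left out, signs changed in mCA at Zfp281 (-0.174 to 0.119), Zfp358 (-0.0531 to 0.182), Zfp513 (-0.273 to 0.117), Zfp747 (-0.814 to 0.163), Zfp932 (-0.196 to 0.0145) and Zfp951 (-0.206 to 0.0985), and in mCG at Zfp238 (-4.45 to 2.81) and Zfp771 (-0.997 to 2.36). None of these sign changes concerned a gene called in all animals, except those made by subtracting medians; the cause was not tested for the others. Depth per gene is unknown, which limits all values under about 0.5%.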

Other observations

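The partners through which KRAB zinc finger proteins silence repeats resembled Zfp genes in level. Of 14 measured genes of this machinery, 9 were lower in hKO in mCA (limma, adjusted p under 0.05; 72.1% of all genes tested were), with medians of 0.649% in hKO and 1.03% in WT. Trim28, the co-repressor itself, had 0.444%, 0.598%, 0.411% and 0.442% in hKO and 0.443%, 0.346%, 0.898% and 0.531% in WT, with overlap and no call (limma adjusted p = 0.592). Setdb1, the histone methyltransferase it recruits, had 0.512% ± 0.13 in hKO and 0.761% ± 0.24 in WT and was not called (limma adjusted p = 0.138). The heterochromatin proteins Cbx1 (0.656% ± 0.089 in hKO, 1.34% ± 0.24 in WT), Cbx3 (0.454% ± 0.21 in hKO, 1.05% ± 0.14 in WT) and Cbx5 (0.884% ± 0.20 in hKO, 1.69% ± 0.16 in WT) were lower without overlap (SD, n = 4 each), as were the histone deacetylases Hdac1 (0.941% in hKO, 1.77% in WT) and Hdac2 (0.675% in hKO, 1.15% in WT).

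Zfp637, chosen after its values were seen, had higher means in hKO: 0.538%, 0.446%, 0.732% and 0.546% mCA in hKO and 0.218%, 0.302%, 0.462% and 0.391% in WT. Its difference of 0.222 points did not pass (limma adjusted p = 0.0842), and hKO 047-1 lay below WT 651-3. Its WT mean of 0.343% lay below the mean CC methylation of WT cortex (0.362%), so these values are near the limit of the method. Its mCG differed by -0.327 points.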
